A study of Drosophila melanogaster with 4 samples.

Results

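The nuclear genes for subunits of the mitochondrial respiratory chain and ATP synthase were examined in heads of male Drosophila melanogaster given vigabatrin (VGB). Members were taken by current gene symbol, with the prefixes ND- (complex I), Sdh (complex II), UQCR, RFeSP and Cyt-c1 (complex III), Cyt-c- (cytochrome c), COX4 to COX8 (complex IV) and ATPsyn (complex V). The rule found 49 probes for 42 genes, of 6793 genes named on the array. In RefSeq Release 6 it matches 92 genes, and 50 of these were not named on the array. The rule uses no measured value. Subunits that carry other names in the fly, such as blw (the ATP synthase alpha subunit), levy and cype (both of complex IV), and the subunits encoded in mitochondrial DNA, were outside the rule.

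Oxidative phosphorylation passes electrons from NADH through complex I, or from succinate through complex II, to ubiquinone, then through complex III and cytochrome c to oxygen at complex IV. Complexes I, III and IV pump protons out of the mitochondrial matrix, and ATP synthase (complex V) makes ATP as the protons flow back. Neurons and photoreceptors of the fly head depend heavily on this pathway. Vigabatrin blocks GABA transaminase, a mitochondrial enzyme whose product is converted to succinate, the substrate of complex II.

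Both groups were Oregon-R wild-type males, unmated and 10 to 11 days old when moved to fresh vials of 30 flies. The treated group spent 3 days on food with VGB at 24 mg/ml and the control group the same 3 days on normal food (NF), at the same temperature and light cycle. Heads were pooled, and a VGB and an NF pool of each of 4 parallel sets were hybridised together to 1 spotted cDNA array per set, with VGB labelled with Cy5 on replicates 1 and 2 and with Cy3 on replicates 3 and 4. The pools were whole heads, so fewer cells of a type and less RNA per cell cannot be told apart.

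Each value is a log2 ratio of the dyes, averaged over a pair of duplicate spots (a probe) and taken relative to the median of its array. The sources used here do not state whether the ratios of the dye-swapped arrays were deposited as Cy5 over Cy3 or already as VGB over NF. Each test is therefore given under both readings, and a single value on replicate 3 or 4 changes its sign between them. In the turned coding the signs of replicates 3 and 4 are reversed, so that values are VGB over NF if the deposited ratio is Cy5 over Cy3 throughout. In the unturned coding no sign is reversed, and values are VGB over NF if the authors had already turned the swapped arrays. No direction of change with VGB is settled by these files.

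The arrays were sparse. Between 2559 and 6460 of 27648 spots had a value on an array, and 1114 of 13824 probes had one on at least 3 arrays. The labelled tissue was checked on marker genes. Of 8 photoreceptor genes on the array 6 had any value, 5 of them on at least 3 arrays (inaD, inaC, Arr1, trpl and chp). For testis 1 of 4 genes had any value and 0 had values on at least 3 arrays, and for glia 4 of 7 and 1. Among all probes with a single gene name these shares were 41.3% and 7.74%, and the difference was not tested. Of 2 neuronal genes on the array both had a value, but on fewer than 3 arrays.

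Member probes had values on at least 3 arrays more often than all probes with a single gene name, and the difference was not tested. On any array the shares were 49.0% and 41.3%, from 16.7% in complex IV to 66.7% in complex III. A value on at least 3 arrays was present for 13 of the 49 member probes (26.5%), against 7.74% of the 7558 probes with a single gene name. Of the other members, 5 probes had values on 2 arrays, 6 on 1 array and 25 on none. Coverage was uneven over the complexes. Complex I had 7 of 21 probes on at least 3 arrays, complex II 1 of 8, complex III 0 of 3, complex IV 0 of 6 and complex V 5 of 11. No probe named a cytochrome c gene. The comparison below therefore describes complexes I and V, with 1 gene of complex II.

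**Figure D1:**
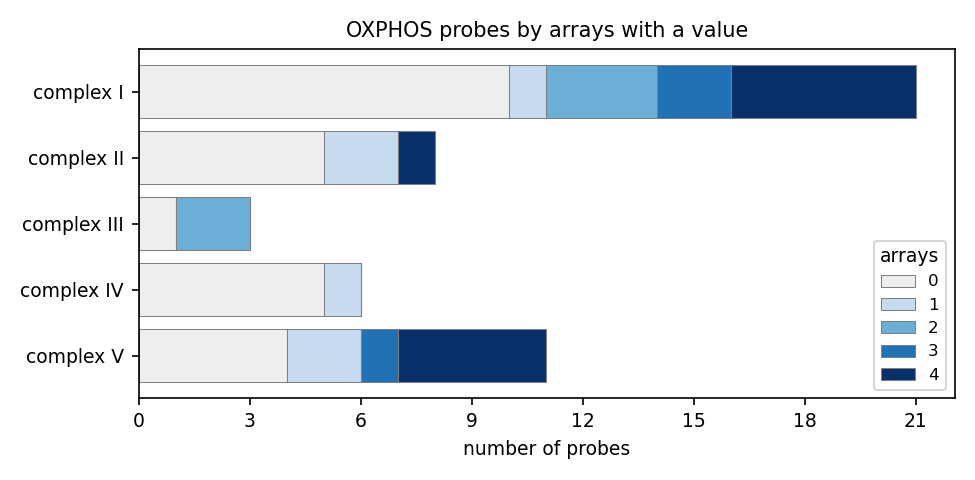
Number of probes of each complex (bar length) by the number of arrays on which the probe had a value (shade). Complexes I and V hold 12 of the 13 probes on at least 3 arrays, and complexes III and IV hold none.

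Of the 9 genes whose symbol is that of another gene under the rule followed by L, with or without a digit, 1 had a value, SdhAL on replicate 1 alone. ATPsynGL, ATPsynbetaL, COX7AL, Cyt-c1L, ND-24L, ND-51L2, SdhBL and SdhCL had none. No probe named SdhA or ND-24 themselves. Among the 40 other member probes 23 had a value on any array. Members with no value at all that are not such copies were ND-13A, ND-13B, ND-18, ND-19, ND-75 and ND-B8 of complex I, SdhC of complex II, COX4, COX6CL and COX7A of complex IV, and ATPsynD and ATPsynO of complex V. COX6CL and COX6AL also end in L, but no gene under the rule has the symbol COX6C or COX6A, so both were counted among the 40. A missing value means only that the spot did not pass the authors' filters.

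No subunit passed the single-mean test (limma, intercept only) for a difference between VGB and NF in either coding. A model with both codings, where ND-ASHI passed 1 term, is given further below. In the turned coding 0 of 13 member probes passed limma over all 1114 probes tested, where 0.359% of probes passed (0.0898% higher and 0.269% lower). None of the 13 had an unadjusted p under 0.05, against 1.17% of all probes higher and 7.27% lower, and their limma adjusted p ran from 0.915 to 0.997. In the unturned coding 0 of 13 passed, with 0% called over all probes, and 2 of the 13 had an unadjusted p under 0.05 (ND-ASHI and ND-B17.2, both above 0). Over all probes 11.8% were above and 2.24% below 0 at that level. The 95% intervals had a median half-width of 0.34 in the turned coding and 0.31 in the unturned.

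The sign of the list followed the coding, as it did for all probes. In the turned coding 11 of 13 means lay below 0, with a median of -0.10. Over all probes tested 61% lay below 0, with a median of -0.04. With no sign turned 3 of 13 lay below 0, with a median of 0.14, against 36% and a median of 0.07 over all probes. Complex I had a median of -0.08 turned and 0.14 unturned over 7 probes, and complex V a median of -0.11 turned and 0.18 unturned over 5. The 10 members on all 4 arrays had medians of -0.08 and 0.16 in the turned and unturned coding, and the 3 members on 3 arrays -0.22 and -0.09.

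**Figure D2:**
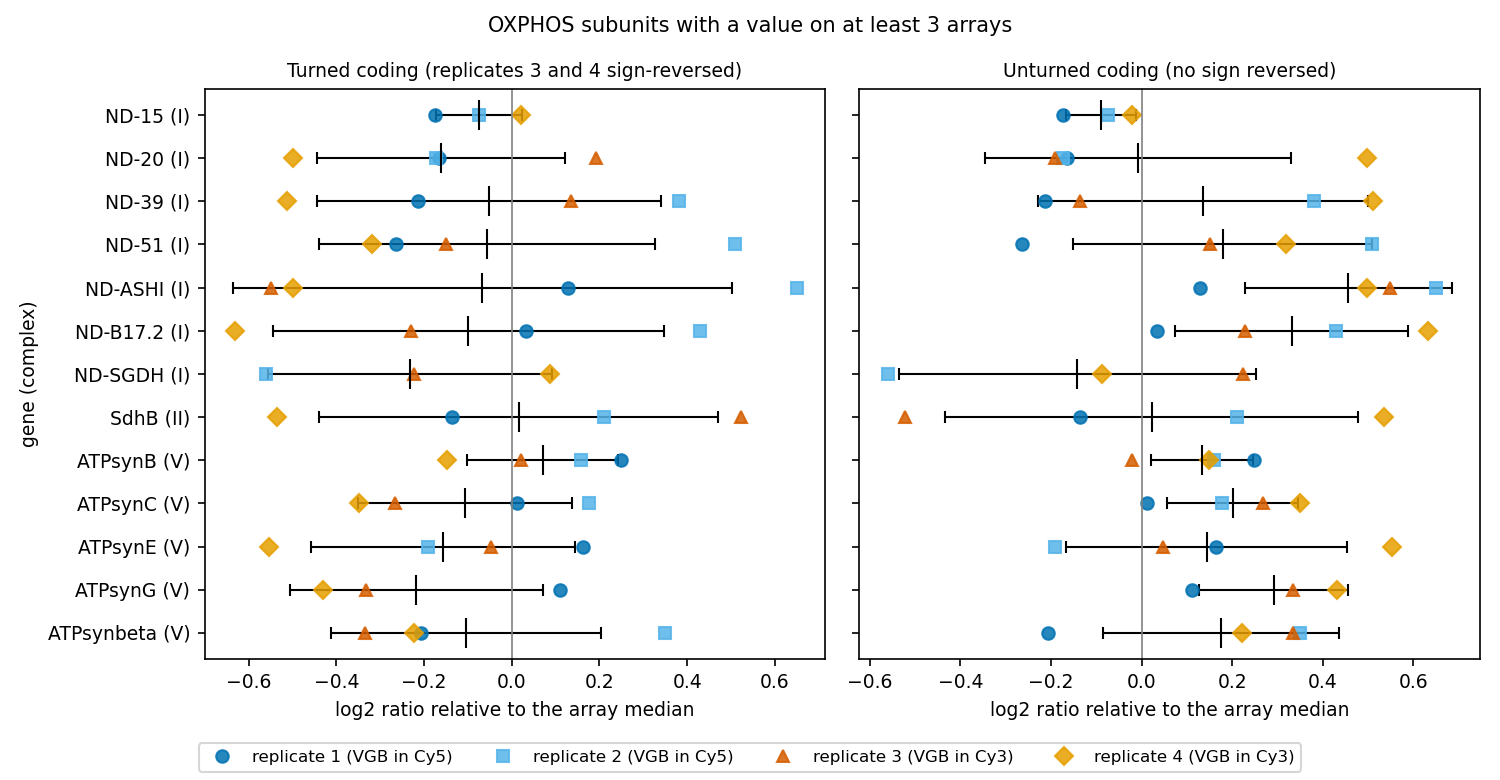
Log2 ratio relative to the array median (horizontal axis) on each array for the 13 subunits on at least 3 arrays (rows), in the turned (left) and unturned (right) coding. Bars are the mean with 1 SD over 3 or 4 arrays. ND-ASHI spans -0.55 to 0.65 on the left and lies above 0 on every array on the right.

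Complex I subunits of the matrix arm were the first group. ND-51 binds FMN and oxidises NADH. In the turned coding it stood at -0.26, 0.51, -0.15 and -0.32 on replicates 1 to 4, a mean of -0.06 ± 0.38 (SD, n = 4; limma adjusted p = 0.997). Replicate 2 was the only array above 0. With no sign turned its mean was 0.18 ± 0.33 (SD, n = 4; limma adjusted p = 0.578). A second probe of ND-51 had values on 2 arrays, -0.49 on replicate 2 and -0.06 on replicate 4 in the turned coding. The replicate 4 value was the mean of spots at -0.29 and 0.17. On replicate 2 the probes of this gene thus lay on opposite sides of the array median.

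ND-20 carries the last iron-sulfur cluster before ubiquinone (known from its mammalian counterpart). It stood at -0.16, -0.17, 0.19 and -0.50 in the turned coding, a mean of -0.16 ± 0.28 (SD, n = 4; limma adjusted p = 0.968). Unturned its mean was -0.01, since replicates 1 to 3 lay between -0.19 and -0.16 and replicate 4 at 0.50. ND-39 is an accessory subunit near the quinone site in mammals. It stood at -0.21, 0.38, 0.14 and -0.51, a mean of -0.05 ± 0.39 (SD, n = 4) turned and 0.14 ± 0.36 unturned. In either coding ND-39 had 2 arrays on each side of 0.

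ND-B17.2 is an accessory subunit that joins late in assembly of the mammalian enzyme. Its turned values were 0.03, 0.43, -0.23 and -0.63 on replicates 1 to 4, a mean of -0.10 ± 0.45 (SD, n = 4; limma adjusted p = 0.989). Both arrays with VGB in Cy5 lay above 0 and both with VGB in Cy3 below. Unturned it lay above 0 on all 4 arrays, with a mean of 0.33 ± 0.26 (SD, n = 4; 95% interval 0.04 to 0.62; limma adjusted p = 0.291).

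ND-ASHI, a subunit of the membrane arm that pumps protons, showed the same split more widely. It stood at 0.13, 0.65, -0.55 and -0.50 in the turned coding, a mean of -0.07 ± 0.57 (SD, n = 4; limma adjusted p = 0.997), a range of 1.20 over the arrays against 0.52 unturned. Unturned it was above 0 on 4 of 4 arrays, with a mean of 0.46 ± 0.23 (SD, n = 4; 95% interval 0.17 to 0.74; limma adjusted p = 0.165), a ratio of 1.37. SdhB had the widest unturned range of the 13, at 1.06. The duplicate spots of ND-ASHI agreed in sign on every array and differed by 0.04 to 0.20.

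ND-SGDH and ND-15 are further accessory subunits of the mammalian membrane arm, each measured on 3 arrays. The turned values of ND-SGDH were -0.56 (replicate 2), -0.22 (replicate 3) and 0.09 (replicate 4), and its 95% interval ran from -0.61 to 0.15 (n = 3; limma adjusted p = 0.915). Unturned its mean was -0.14 ± 0.39 (SD, n = 3), with replicate 3 above 0 and the other arrays below. ND-15 stood at -0.17, -0.07 and 0.02 on replicates 1, 2 and 4, a mean of -0.08 ± 0.10 (SD, n = 3) turned and -0.09 ± 0.08 unturned. Among the 13 tested members its arrays differed least in both codings, and it alone was below 0 on every array measured in the unturned coding.

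Complex I members with fewer values were given without a test. Among them ND-42 stood at -0.26 on replicate 2 and -0.23 on replicate 4 in the turned coding, and ND-B18 at -0.48 on replicate 3 and -0.29 on replicate 4. The duplicate spots of ND-42 on replicate 4 lay on either side of 0, at -0.56 and 0.10 turned. ND-B22 had 1 value, -0.51 on replicate 4. Unturned, the values on replicates 3 and 4 change sign, so ND-B18 was above the median on both of its arrays and ND-42 fell on either side.

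Complex II was represented by SdhB, the iron-sulfur subunit of succinate dehydrogenase, which is also the enzyme of the citric acid cycle that takes up succinate. SdhB stood at -0.14, 0.21, 0.52 and -0.54 on replicates 1 to 4 in the turned coding, a mean of 0.02 ± 0.46 (SD, n = 4; 95% interval -0.35 to 0.38; limma adjusted p = 0.997). Unturned its mean was also 0.02 ± 0.46 (SD, n = 4; limma adjusted p = 0.978). It had 2 arrays on each side of 0 in both codings, and replicates 3 and 4, which share a dye order, were its highest and lowest arrays in the turned coding. SdhD, a membrane anchor, had -0.15 on replicate 4 turned and 0.15 unturned, and SdhAL -0.33 on replicate 1, where its duplicate spots differed by 1.14.

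Complexes III and IV had values on 1 or 2 arrays only, with no test. Cyt-c1, the haem subunit that hands electrons to cytochrome c, stood at 0.22 and -0.29 on replicates 3 and 4 in the turned coding. These arrays share a dye order, so the gene lay on both sides of the median whichever coding holds. UQCR-6.4, a small subunit of complex III, stood at 0.32 on replicate 1 in both codings, and at 0.15 turned and -0.15 unturned on replicate 4. COX6AL of complex IV had -0.37 turned and 0.37 unturned on replicate 4, the mean of duplicate spots that differed by 1.62, the widest gap among members.

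In complex V, ATPsynbeta, the catalytic subunit, stood at -0.21, 0.35, -0.33 and -0.22 on replicates 1 to 4 in the turned coding, a mean of -0.10 ± 0.31 (SD, n = 4; limma adjusted p = 0.989). Unturned it was above 0 on 3 of 4 arrays, with a mean of 0.18 ± 0.26. ATPsyngamma, the central stalk that turns within the catalytic head, had 1 value, 0.30 on replicate 4 in the turned coding. It lay opposite to ATPsynbeta on that array.

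ATPsynC forms the ring in the membrane that turns with proton flow. Its turned values were 0.01, 0.18, -0.27 and -0.35, a mean of -0.11 ± 0.24 (SD, n = 4; limma adjusted p = 0.989), and its unturned mean was 0.20 ± 0.14 (limma adjusted p = 0.495), above 0 on 4 of 4 arrays. On replicate 1 its duplicate spots lay on either side of 0. ATPsynB, of the peripheral stalk, stood at 0.25, 0.16, 0.02 and -0.15, a mean of 0.07 ± 0.17 (SD, n = 4) turned and 0.13 ± 0.11 unturned. Of the members on 4 arrays it had the narrowest range in both codings, 0.40 turned and 0.27 unturned.

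Subunits e and g sit in the membrane where ATP synthases pair into dimers in yeast and mammals. ATPsynE stood at 0.16, -0.19, -0.05 and -0.55 in the turned coding, a mean of -0.16 ± 0.30 (SD, n = 4; limma adjusted p = 0.988), and at 0.14 ± 0.31 unturned. ATPsynG stood at 0.11, -0.33 and -0.43 on replicates 1, 3 and 4 (n = 3; limma adjusted p = 0.926). Unturned it was above 0 on 3 of 3 arrays, with a mean of 0.29 ± 0.16 (SD, n = 3; 95% interval -0.03 to 0.62; limma adjusted p = 0.414). A second ATPsynG probe had 1 value, 0.07 on replicate 1, beside 0.11 for the first. It was the mean of duplicate spots on either side of 0, at -0.36 and 0.49.

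The codings were then put in a single limma model, with 1 term for the turned and 1 for the unturned mean, over the 591 probes on all 4 arrays. If the deposited ratio is Cy5 over Cy3, the turned term is the effect of VGB and the unturned term that of the dye, and if the authors had turned the swapped arrays, these roles change places. None of the 10 members in this model passed the turned term (lowest limma adjusted p = 0.697, ND-20), against 0.169% of probes higher and 4.4% lower. In the unturned term ND-ASHI passed, at 0.46 (n = 4, above 0 on 4 of 4 arrays; limma adjusted p = 0.029), against 6.43% of probes higher and 0.508% lower. Thus 1 of 10 members passed, and ND-B17.2 was next at 0.33 (limma adjusted p = 0.121). ND-ASHI no longer passed with block centring (0.36; limma adjusted p = 0.13), with arrays centred on the probes on at least 3 arrays (0.38; limma adjusted p = 0.078) or without replicate 2 (0.33; limma adjusted p = 0.48). It also missed the threshold on either duplicate spot alone (limma adjusted p = 0.072 and 0.090) and when all 1114 probes were fitted (0.056). On the first spot alone 0 of 591 probes passed. ND-ASHI still passed with quantile normalization (limma adjusted p = 0.037) and at gene level (limma adjusted p = 0.048). Without replicate 1, 3 or 4 it passed too (limma adjusted p = 0.023, 0.040 and 0.049). Whether this term is dye or drug cannot be told apart here.

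**Figure D3:**
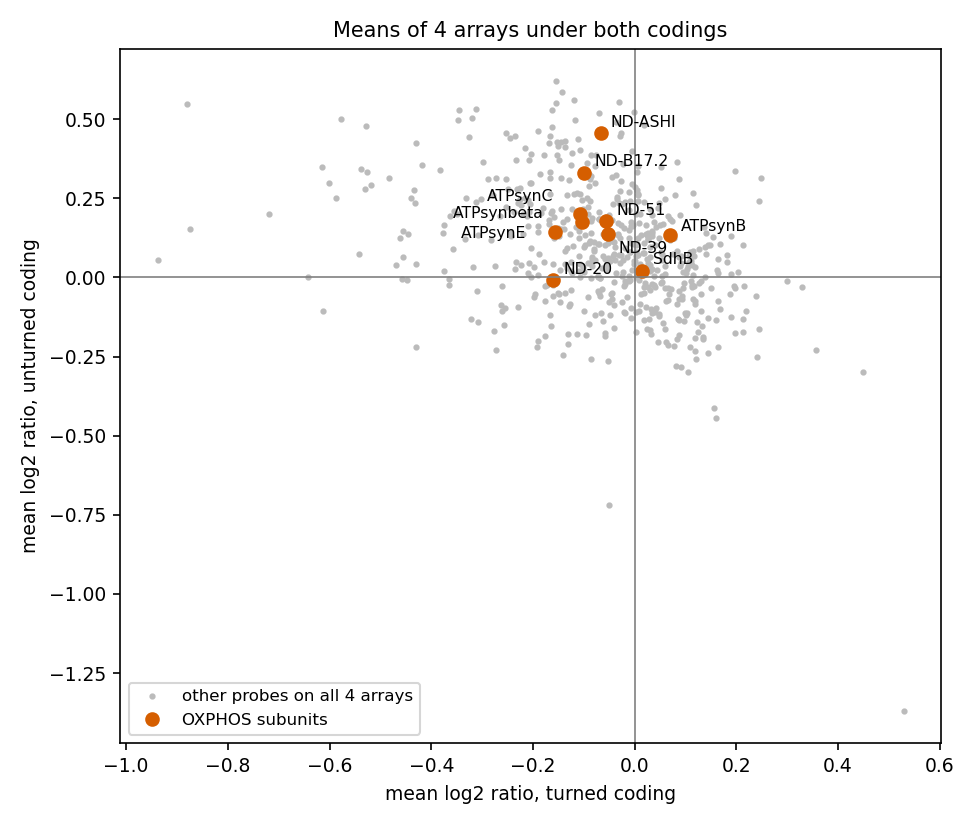
Mean log2 ratio of 4 arrays in the turned (horizontal) against the unturned coding (vertical) for 591 probes, with the 10 OXPHOS subunits named. Of the subunits 9 lie above 0 on the vertical axis, and 7 lie above 0 there and below 0 on the horizontal axis, as do 48.6% of all probes shown.

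Agreement over arrays was read from the 10 members on all 4. In the turned coding 0 of 10 had the same sign on every array, against 3.55% higher and 11.5% lower on all 4 among all 591 probes. In the unturned coding ND-ASHI, ND-B17.2 and ATPsynC were above 0 on all 4 arrays, 3 of 10, against 18.3% of probes, and 0 of 10 were below 0 on all 4, against 3.72%.

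The position of the subunits within each array was also compared. Among the members on all 4 arrays the median without turning was -0.06, 0.28, 0.10 and 0.50 on replicates 1 to 4. For all probes on 4 arrays it was -0.01, 0.09, 0.04 and 0.25. Replicate 4 stood out for both. All 10 members lay above its median, and so did 78% of the 591 probes. On replicate 1, 5 members lay above and 5 below. Without replicate 4 the median of the 13 means was -0.03 in the turned coding, and without replicate 2 it was -0.20.

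**Figure D4:**
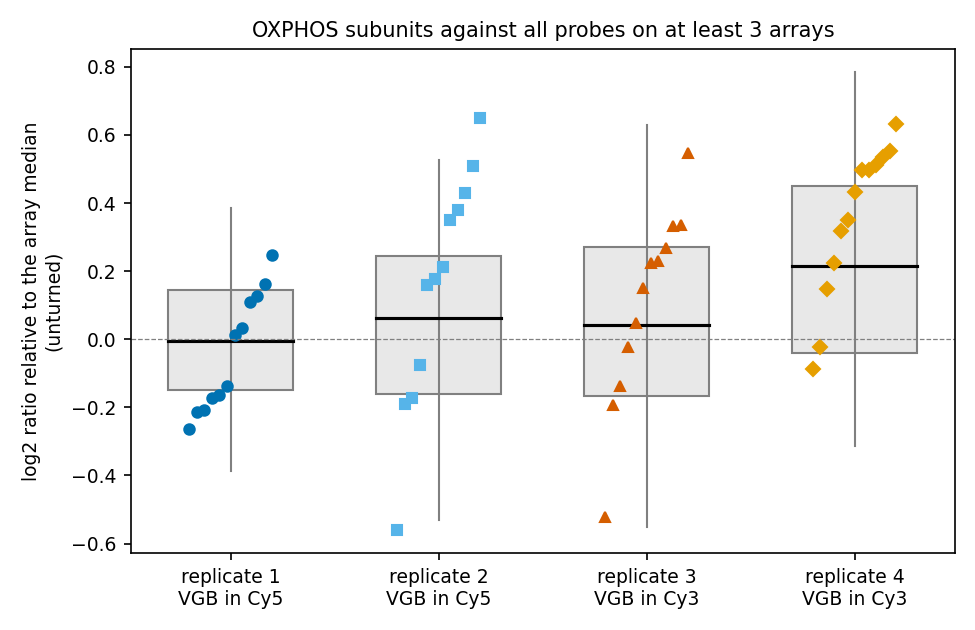
Log2 ratio relative to the array median with no sign turned (vertical axis) on the 4 arrays (horizontal axis). Points are the subunits on at least 3 arrays, sorted within an array, and boxes give the quartiles, median and 5th to 95th percentiles of all probes on at least 3 arrays. On replicate 4 both the points and the box lie mostly above 0.

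Duplicate spots of the tested members lay on the same side of the array median in 43 of 49 pairs. The median difference within a member pair was 0.20 on replicate 1 and between 0.09 and 0.14 on the other arrays, against 0.26 and 0.14 to 0.16 for all pairs.

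Few other genes of mitochondrial metabolism were tested, on an array where 7.74% of all probes with a single gene name were. None passed the single-mean test, against 0.359% of all probes in the turned coding and 0% in the unturned. Of 11 mitochondrial carriers on the array 2 were tested. Mpcp2, a phosphate carrier that supplies ATP synthase, stood at 0.47, 0.13, -0.33 and -0.61 in the turned coding, split by dye order as ND-ASHI was, and had an unturned mean of 0.39 ± 0.20 (SD, n = 4; limma adjusted p = 0.191). Rim2, a pyrimidine nucleotide carrier, had means of 0.04 turned and -0.36 unturned (n = 3). Of 9 genes of the citric acid cycle and pyruvate metabolism on the array, PCB (pyruvate carboxylase) alone was tested, at -0.15 turned and -0.10 unturned (n = 3). None of 8 assembly factors and none of 8 antioxidant or chaperone genes on the array had values on 3 arrays. The 4 mitochondrial ribosomal protein genes tested had a median of 0.02 turned and 0.12 unturned, with 1 below 0 in the turned coding. That gene, mRpS34, stood at -0.31, -0.35, -1.31 and -1.54 turned, below 0 on 4 of 4 arrays, a mean of -0.88 ± 0.64 (SD, n = 4; limma adjusted p = 0.090), and at 0.55 ± 1.02 unturned (limma adjusted p = 0.379). In the two-term model it passed both the turned term (limma adjusted p = 0.00012) and the unturned term (0.55, limma adjusted p = 0.014). Among all 591 probes 4.4% passed the turned term lower and 6.43% the unturned term higher.

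Subunits of the vacuolar ATPase, a related rotary proton pump outside mitochondria, gave a comparison by size. Of its 12 probes on the array 5 were tested, for 4 genes. They had a median of -0.01 turned, with 3 below 0, and 0.11 unturned, with 1 below 0. The difference from the respiratory subunits was not tested. Muscle is rich in mitochondria, and 3 muscle markers were tested (Act79B, Act88F and Mlc2), of 10 on the array. Their means lay between -0.01 and 0.22 turned and between -0.03 and 0.24 unturned. Act88F, an actin of flight muscle, was above 0 in the unturned coding on 2 of 4 arrays, at 0.65 on replicate 2 and 0.58 on replicate 4. Of 8 fat body genes on the array apolpp, which encodes a lipid transport protein, alone was tested, on 2 probes. Their means were -0.61 and -0.64 turned, below 0 on 4 of 4 arrays, and -0.11 and 0.0026 unturned. Both passed the turned term of the two-term model (limma adjusted p = 0.0087), which 4.4% of all probes passed lower. Pxn, a haemocyte marker, had means of 0.62 turned and -0.36 unturned (n = 3) and did not pass. The part of muscle, fat body or haemocyte RNA in the subunits' values was not tested.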

How the data were processed

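The authors quantified slides with GenePix Pro 6.0 and normalized ratios with Acuity 4.0, per the labels and series design. They dropped spots whose signal-to-noise ratio was under 3 or regression R2 under 0.6. Settings for raw intensity (minimum 100) and saturated pixels (3%) were listed too. The deposited values are log ratios, taken as log2; the base is not stated. Column medians were 1.03, 1.04, 0.52 and 0.45, so each array was centred on the median of its probes here.

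Of the 13824 probes (adjacent duplicate spots averaged), 7558 had 1 gene in GEO's annotation, 51 several and 6215 none listed. Symbols were updated by Entrez identifier through a RefSeq Release 6 table for 7447. Limma 3.58.1 (R 4.3.3; lmFit, eBayes, intercept only, two-sided) was run on probes with values on at least 3 arrays, with Benjamini-Hochberg adjustment at 0.05, and tested on simulated data. Replicates are separate pools. Every member on at least 3 arrays is named with its values.

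The members and lists were chosen with earlier results of these data known. Other centring, codings, filters, spots, gene-level means, a dye term and leaving out each array were tried. The two-term model under other settings was chosen after seeing the data. The authors' one-class SAM was not run here.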

Additional observations from a re-analysis of the deposited data

Results flagged for a closer look

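Of 20 sets of 4 values looked at (10 subunits in both codings), 1 had an array far from the others. ND-20 stood at 0.50 on replicate 4 in the unturned coding, while replicates 1 to 3 lay between -0.19 and -0.16. Chance alone would mark about 1 in 20 such sets.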

How the results depend on the processing

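The count of 0 subunits past limma in the turned coding was the same under all 15 alternatives, which include the unturned coding. The lowest limma adjusted p of a member was 0.165, in the unturned coding. Among the alternatives with replicates 3 and 4 turned it was 0.523, without replicate 2. The median of the subunits moved from -0.10 to 0.18 on the values as deposited, and without 1 replicate it ran from -0.20 to -0.03. The filters for at least 2 or for all 4 arrays and the dye term left the mean of each probe unchanged, so those values could not change sign. The same held for gene-level values, except those of ATPsynG and ND-51. It also held where the replicate left out had no value for the probe. Of 189 alternative values of single subunits, with these included, 158 kept their sign. As deposited, with replicates 3 and 4 turned, those that did not were ATPsynC (0.17), ATPsynE (0.12), ATPsynbeta (0.18), ND-15 (0.47), ND-20 (0.12), ND-39 (0.23), ND-51 (0.22), ND-ASHI (0.21) and ND-B17.2 (0.18). With the unturned coding they were ATPsynC (0.20), ATPsynE (0.14), ATPsynG (0.29), ATPsynbeta (0.18), ND-39 (0.14), ND-51 (0.18), ND-ASHI (0.46) and ND-B17.2 (0.33). Single changes were ATPsynbeta with block centring (0.018), ND-15 with the first spot (0.014), ND-39 with the second (0.065), and SdhB with the first spot (-0.012) and quantile normalization (-0.00089). Leaving out 1 replicate changed the sign of ND-39 (without replicate 1 or 4), ND-51 (1 or 4), ND-ASHI (3 or 4), ND-B17.2 (4) and SdhB (2 or 3). Their values ran from -0.20 to 0.10, -0.24 to 0.032, -0.31 to 0.093, -0.28 to 0.078 and -0.15 to 0.20. The cause was not tested.

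In the two-term model 1 subunit passed the unturned term, where 41 of 591 probes passed, and 10 did as deposited, where 590 passed. Without 1 replicate 0 to 2 subunits did (2 without replicate 3, with ND-B17.2, where 58 of 591 probes passed). The count was 0 with block centring (19 of 591 probes passed) and centring on the probes on at least 3 arrays (15). It was also 0 on the first spot (0 of 591), the second spot (12) and probes on at least 3 arrays (26 of 1114). On the first spot no probe passed, so no subunit could. For ND-ASHI these settings gave 0.36, 0.38, 0.49, 0.42 and 0.46 (limma adjusted p from 0.056 to 0.13), and 0.33 to 0.59 without 1 replicate. The test on the ratios is itself paired, since each array sets a VGB pool against the NF pool of its set.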
